A study of Mus musculus with 18 samples.

Results

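The genes described here encode the mouse receptors for the constant (Fc) part of immunoglobulin G (IgG) and the proteins that belong with them. They are the activating receptors Fcgr1, Fcgr3 and Fcgr4, the inhibitory receptor Fcgr2b, the shared signalling chain Fcer1g and the IgG transport receptor Fcgrt. The members were listed by gene symbol, with earlier results of these data known, and all 6 were found among the 24485 genes listed for each library. RNA-seq was done on 18 libraries of bone marrow-derived macrophages (BMDMs), in 6 groups of 3. The cells came from 3 Il10-/- mice on a C57BL/6J background, described in the methods of the study as male and 12 weeks old, and no label ties a replicate number to a mouse.

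Every group therefore lacked Il10, and no wild-type cells were part of the series. Bone marrow was grown for 6 days in medium conditioned by L929 cells, which supplies the growth factor for macrophages. The cells then received 500 nM (+)-JQ1, 10 ng/mL IL-10 or neither for 12 hours, and 50 ng/mL lipopolysaccharide (LPS) or phosphate-buffered saline for a further 4 hours. The groups are called Unstimulated, JQ1, IL-10, LPS, LPS + JQ1 and LPS + IL-10. The labels call the cells given neither agent untreated, whereas in the study's methods the pretreatment before LPS had a vehicle control. JQ1 is a small molecule that keeps the BET proteins from binding acetylated histones, IL-10 is the anti-inflammatory cytokine these cells cannot make, and LPS, part of the outer wall of bacteria, is a strong activator of macrophages. The comparisons address how BET inhibition and IL-10 change the macrophage response to LPS.

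Fc gamma receptors let macrophages bind particles and immune complexes coated with IgG. The activating receptors signal through the gamma chain encoded by Fcer1g. Its immunoreceptor tyrosine-based activation motif (ITAM) is phosphorylated by Src family kinases and recruits the kinase Syk, which leads to phagocytosis and cytokine release. Protein at the cell surface was not measured here. Fcgr2b carries an immunoreceptor tyrosine-based inhibition motif (ITIM) in its own tail and recruits the lipid phosphatase encoded by Inpp5d, which restrains that signal. Macrophages express both kinds, so the balance between them sets a threshold for immune complexes. Fcgrt, the heavy chain of the neonatal Fc receptor, pairs with beta-2 microglobulin and returns IgG from endosomes to the cell surface. Fcgr1 binds monomeric IgG with high affinity, whereas Fcgr3 and Fcgr2b bind mainly immune complexes.

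The tyrosine motifs that tell the activating chain from the inhibitory receptor are shown first, as read from the mm9 genome with the GENCODE vM1 annotation. The codons of the tyrosines are in capitals. Each stretch shown is the motif with a few flanking codons on both sides. The stretch of Fcer1g covers codons 62 to 82 of 86, and that of Fcgr2b codons 314 to 325 of 340.
Fcer1g ITAM: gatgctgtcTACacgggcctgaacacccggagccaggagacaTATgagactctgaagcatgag
Fcgr2b ITIM: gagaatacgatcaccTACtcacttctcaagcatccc
The ITAM holds a pair of tyrosine codons and the ITIM a single tyrosine codon.

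The 3 receptors for immune complexes are neighbours on mm9 chromosome 1. Fcgr2b lies at 172890689 to 172906678 on the minus strand, Fcgr4 at 172949051 to 172959892 on the plus strand and Fcgr3 at 172981300 to 172995066 on the minus strand, a stretch of 104378 bases in all. Fcer1g follows at 173159703 to 173164496 on the minus strand of chromosome 1. Fcgr1 lies on chromosome 3, at 96086832 to 96098179 on the minus strand, and Fcgrt on chromosome 7, at 52348363 to 52359192 on the minus strand. All are annotated as protein-coding, and no gene on the opposite strand overlaps any of them. On the same strand, the small nuclear RNA gene U1 overlaps Fcgr4 by 165 bases. U1 was not among the genes listed for each library, and its part in the Fcgr4 values was not tested.

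Fcgr2b and Fcgr3 resemble each other closely enough to share reads. Their coding sequences were identical at 84.4% of 784 aligned bases, against 60.6% to 66.3% for the other pairs of receptors. Of the 50-base windows of the Fcgr3 transcript, 12.8% were also present in Fcgr2b, and no other pair of receptors shared such a window. The longest identical stretch of the 2 coding sequences starts at coding base 278 of Fcgr2b and coding base 263 of Fcgr3. It is shown because a single read from within it fits both genes, although the other end of its pair may differ.
Shared by Fcgr2b and Fcgr3: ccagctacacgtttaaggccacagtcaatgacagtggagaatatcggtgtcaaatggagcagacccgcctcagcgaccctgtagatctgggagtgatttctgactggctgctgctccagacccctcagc
This stretch is 129 bases long. The deposited counts of the 2 genes added up to a whole number, within 0.02, in 18 of 18 libraries, and Fcgr2b alone was whole in 0 of 18, so reads had been divided between them. Their separate values depend on that division, and its part in the results was not tested.

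The totals of expected counts ran from 6781952 to 28289498 per library, the lowest being Unstimulated replicate 2. All 8 macrophage markers, among them Adgre1, Csf1r and Mertk, were present in each group, with a summed level of 14080 to 29440 TPM (an abundance per transcript length, scaled to the same total in every library). Markers of NK cells summed to at most 0.41 TPM, those of B cells to at most 5.41 TPM, those of T cells to at most 4.53 TPM and those of dendritic cells to at most 5.48 TPM. The neutrophil list, mostly S100a8 and S100a9 and with Ly6g at 0 in all libraries, summed to 24.3 to 87.3 TPM in the Unstimulated, 25.7 to 37.2 in the IL-10, 35.9 to 51.6 in the LPS and 31.5 to 70.0 in the LPS + IL-10 group, and to 7.5 to 17.5 in the JQ1 and 13.3 to 30.1 in the LPS + JQ1 group. The mast cell and basophil list summed to at most 0.6 TPM in the Unstimulated, JQ1 and IL-10 groups, 82.0 to 95.6 TPM in LPS and LPS + IL-10, and 2.72 to 3.03 TPM in LPS + JQ1. Of its 7 genes, 6 averaged under 1 TPM, and nearly all of the sum was Hdc, the histidine decarboxylase gene. The part of these lists in the results was not tested. Il10 itself still had reads in every library, 27.1 to 176.7 normalised counts. Interferon-inducible genes were high in Unstimulated replicate 1, with 52.5 normalised counts of Cxcl9 against 6.8 and 1.3 in replicates 2 and 3. In bulk RNA, fewer cells that express a gene and less RNA of it per cell cannot be told apart.

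Levels are given as TPM, the scale on which genes can be compared, in replicates 1, 2 and 3. Fcgr1 had 143, 106 and 105 TPM in the Unstimulated group. Pretreatment left it at 10.4, 9.92 and 11.1 TPM in the JQ1 group and at 157, 158 and 174 TPM in the IL-10 group. After LPS it stood at 247, 272 and 291.5 TPM without pretreatment, 10.4, 13.8 and 13.2 TPM after JQ1 and 384, 477 and 495 TPM after IL-10. The groups fell in the order LPS + IL-10, LPS, IL-10, Unstimulated, LPS + JQ1 and JQ1, and of neighbours in this order only LPS + JQ1 and JQ1 overlapped. The highest Unstimulated library was replicate 1, the library with high interferon-inducible genes, and without it the Fcgr1 changes against Unstimulated cells described below kept their calls, at log2 fold changes of 2.13 with LPS, -3.13 with JQ1 and 0.57 with IL-10.

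Fcgr3, the low-affinity activating receptor, had 572, 614 and 646 TPM in the Unstimulated group. Pretreatment left it at 239, 253 and 273 TPM in the JQ1 group and at 813, 827 and 844 TPM in the IL-10 group. After LPS it stood at 165, 196 and 207 TPM without pretreatment, 63.2, 81.6 and 80.9 TPM after JQ1 and 378, 547 and 537 TPM after IL-10. It was the most abundant of the 4 receptors without LPS. No neighbouring groups overlapped in its order of IL-10, Unstimulated, LPS + IL-10, JQ1, LPS and LPS + JQ1, so on this scale every LPS-treated group was below its counterpart without LPS.

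Fcgr4, an activating receptor of intermediate affinity, was the least abundant of the 4 receptors in every group. It had 19.6, 19.1 and 18.2 TPM in the Unstimulated group. Pretreatment left it at 0.60, 0.32 and 0.73 TPM in the JQ1 group and at 26.4, 23.6 and 29.9 TPM in the IL-10 group. The JQ1 values rested on 6, 3 and 7 counts, of which the exact Poisson intervals were 2.20 to 13.1, 0.619 to 8.77 and 2.81 to 14.4 counts. After LPS it stood at 112, 130.0 and 163 TPM without pretreatment, 3.07, 5.72 and 4.56 TPM after JQ1 and 166, 207 and 249 TPM after IL-10. No neighbouring groups overlapped in the order LPS + IL-10, LPS, IL-10, Unstimulated, LPS + JQ1 and JQ1, although LPS and LPS + IL-10 came within a few TPM of each other.

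Fcgr2b, the inhibitory receptor, had 150.4, 139 and 135 TPM in the Unstimulated group. Pretreatment left it at 44.5, 43.7 and 47.0 TPM in the JQ1 group and at 332, 291 and 302 TPM in the IL-10 group. After LPS it stood at 493, 473 and 573 TPM without pretreatment, 26.1, 25.2 and 25.4 TPM after JQ1 and 1317, 1566 and 1707 TPM after IL-10. It spanned the widest range in TPM of the 4 receptors, its order was LPS + IL-10, LPS, IL-10, Unstimulated, JQ1 and LPS + JQ1, and no neighbours overlapped. Unlike Fcgr1 and Fcgr4, it was lower in LPS + JQ1 than in JQ1.

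Fcer1g, the gamma chain, had 1246, 1045 and 1212 TPM in the Unstimulated group. Pretreatment left it at 1002, 899.9 and 960.2 TPM in the JQ1 group and at 1396, 1243 and 1344 TPM in the IL-10 group. After LPS it stood at 2168, 2233 and 2705 TPM without pretreatment, 2120.5, 2258 and 2006 TPM after JQ1 and 2350.1, 2162 and 2891 TPM after IL-10. The 3 groups with LPS overlapped with their neighbours and were all above the groups without LPS, where IL-10 and Unstimulated overlapped. JQ1 alone was the lowest group.

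Fcgrt, the transport receptor, had 74.2, 85.1 and 88.4 TPM in the Unstimulated group. Pretreatment left it at 65.8, 60.6 and 76.8 TPM in the JQ1 group and at 107, 110.05 and 122 TPM in the IL-10 group. After LPS it stood at 27.7, 30.9 and 32.5 TPM without pretreatment, 30.9, 32.6 and 38.5 TPM after JQ1 and 35.5, 41.3 and 42.5 TPM after IL-10. The groups with LPS overlapped with their neighbours and lay below every library without LPS, and Unstimulated and JQ1 overlapped.

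**Figure D1:**
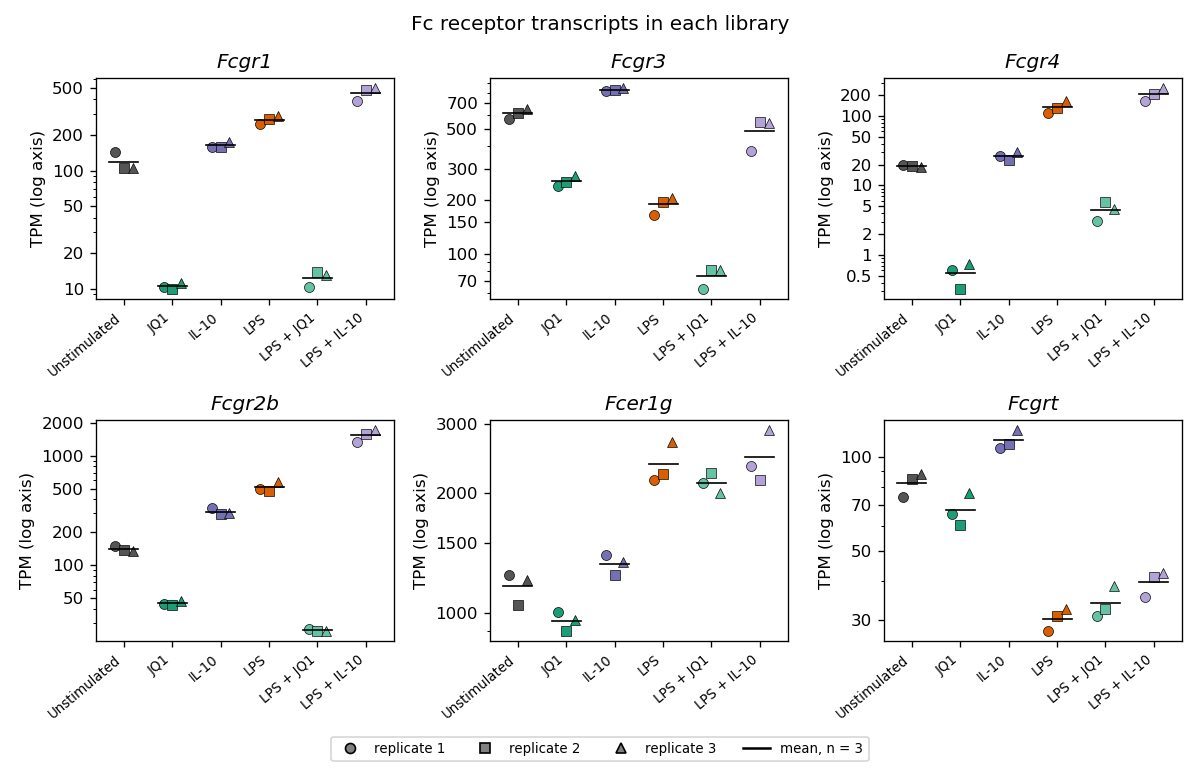
Level of each gene in TPM (vertical log axis, a separate scale in each panel) in the 6 groups, with 1 point per library, a marker shape per replicate number and a line at the mean of 3. Fcgr1, Fcgr4 and Fcgr2b are lowest in the 2 groups with JQ1 and highest with LPS + IL-10, whereas the 3 LPS groups of Fcer1g lie together at 2006 to 2891 TPM.

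LPS raised the transcripts of 4 members and lowered those of 2. Changes were tested with DESeq2 on normalised counts, with p-values adjusted by Benjamini-Hochberg over all genes tested, and are log2 fold changes with their standard error (SE). All 6 members were tested in all 11 comparisons, 2 of which are interactions. Fcgr4 rose by 3.61 (SE 0.140), or 12.2-fold, Fcgr2b by 2.64 (SE 0.073), or 6.24-fold, and Fcgr1 by 1.97 (SE 0.103), or 3.92-fold. Fcer1g rose by 1.80 (SE 0.071). Fcgr3 fell by 0.91 (SE 0.105, adjusted p = 1.59e-17) and Fcgrt fell by 0.66 (SE 0.102, adjusted p = 2.28e-10). Comparisons that share control libraries are not independent of each other. The normalised counts of the 2 groups overlapped for none of the members, and the share of all genes without such overlap was not determined. Among all genes 31.6% were called higher and 32.9% lower, so a call as such is common in this comparison.

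The size of an LPS effect depended on the scale. The median change of all genes, -0.03 in normalised counts, was -0.96 when libraries were scaled to their totals and -0.67 on log2(TPM + 1), over genes whose normalised counts averaged 10 or more. Genes called higher were 49.5% of those called in normalised counts, 20.6% with total-count scaling and 23.4% on TPM. With total-count scaling the rises were 2.68 for Fcgr4, 1.71 for Fcgr2b, 1.04 for Fcgr1 and 0.87 for Fcer1g, and Fcgr3 and Fcgrt were at -1.84 and -1.59, all past the threshold. Relative to that median, Fcgr3 fell by 0.88 in normalised counts and by 1.02 on TPM, and Fcer1g rose by 1.83 and 1.69, so the directions of both were the same on the 2 scales.

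Within JQ1-treated cells, LPS moved the receptors differently. Fcgr4 rose by 3.28 (SE 0.401) from its very low level and Fcer1g by 1.45 (SE 0.071). Fcgr3 fell by 1.49 (SE 0.108) and Fcgrt by 0.72 (SE 0.102), and Fcgr2b, which LPS raised in cells without JQ1, fell by 0.54 (SE 0.092, adjusted p = 1.59e-08). Fcgr1 was higher by 0.51 (SE 0.126, adjusted p = 0.000117, DESeq2), a call lost with total-count scaling (0.14, adjusted p = 0.354) and on TPM (0.22 in limma, adjusted p = 0.127). With 3 members higher and 3 lower, the background shares were 27.6% of genes called higher and 31% lower.

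In IL-10-treated cells LPS raised Fcgr4 by 3.68 (SE 0.131), Fcgr2b by 3.04 (SE 0.069), Fcgr1 by 2.19 (SE 0.102) and Fcer1g by 1.63 (SE 0.070) and lowered Fcgrt by 0.78 (SE 0.099). Fcgr3 was not called, with a change of -0.04 and a 95% interval of -0.25 to 0.16 (DESeq2 adjusted p = 0.722). With total-count scaling its change was -0.87 and on TPM -0.78, both past the threshold, whereas relative to the median of all genes it was -0.03 in normalised counts and -0.16 on TPM. The background shares were 33.2% called higher and 33.8% lower. Among called genes 50.1% were higher, against 21.4% with total-count scaling, and for LPS within JQ1-treated cells these shares were 47.9% and 26.2%.

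JQ1 without LPS lowered all 4 receptors and left the chain and the transport receptor without a call. The neutrophil list described above was also lower with JQ1, and the B cell list was at 0.23 to 0.50 TPM against 2.34 to 5.41 TPM in Unstimulated cells, whereas the macrophage list was at 29310 to 29440 TPM against 23140 to 24910 TPM. Fcgr4, with 3 to 7 counts per JQ1 library, fell by 4.89 (SE 0.386, 95% interval -5.65 to -4.14), or 29.8-fold, and its change on log2(TPM + 1) was -3.70. Fcgr1 fell by 3.29 (SE 0.117), or 9.77-fold. Fcgr2b fell by 1.44 (SE 0.081), or 2.72-fold, and Fcgr3 fell by 1.06 (SE 0.105), or 2.08-fold. Fcer1g changed by -0.10 with a 95% interval of -0.24 to 0.04 (DESeq2 adjusted p = 0.276) and Fcgrt by -0.08 with an interval of -0.27 to 0.11 (adjusted p = 0.541). Both were called lower with total-count scaling (-0.27 and -0.26) and on TPM (-0.29 and -0.28), where the median of all genes was itself at -0.16. None of the members was called higher and 4 were called lower, against 21.9% and 23.7% of all genes. Called genes were higher in 49.5% of cases, and in 27.6% with total-count scaling.

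JQ1 before LPS lowered all 4 receptors relative to LPS alone. Fcgr4 fell by 5.22 (SE 0.177), or 37.3-fold, Fcgr1 fell by 4.74 (SE 0.114), or 26.8-fold, and Fcgr2b fell by 4.62 (SE 0.085), or 24.7-fold. Fcgr3 fell by 1.63 (SE 0.109), or 3.11-fold. All 4 kept direction and call under the 16 alternative settings. Fcer1g fell by 0.44 (SE 0.070, adjusted p = 9.37e-10, DESeq2), a call lost with total-count scaling (-0.07) and on TPM (-0.15), where relative to the median of all genes it was at -0.31. Fcgrt was at -0.14 with an interval of -0.35 to 0.07 (adjusted p = 0.262), and its sign turned with total-count scaling (0.24, adjusted p = 0.0474) and on TPM (0.16). No member was called higher and 5 were called lower, beside 24.4% and 32.9% of all genes. Of called genes 43.6% were higher, but 65.9% with total-count scaling, where the median of all genes was 0.29 rather than -0.09.

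Compared with cells that received nothing, LPS + JQ1 cells had 5 members lower and Fcer1g higher. The changes were -2.77 (SE 0.115) for Fcgr1, -2.55 (SE 0.108) for Fcgr3, -1.98 (SE 0.087) for Fcgr2b, -1.62 (SE 0.189) for Fcgr4 and -0.80 (SE 0.102) for Fcgrt. Fcer1g was higher by 1.35 (SE 0.071). The shares of all genes were 30.1% higher and 32.3% lower, and 50.2% of called genes were higher, against 23.6% with total-count scaling.

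Whether JQ1 acted to a different extent with LPS than without was tested as an interaction, the change with JQ1 in LPS-treated cells minus that in cells without LPS. It was -3.18 (SE 0.117) for Fcgr2b, -1.46 (SE 0.163) for Fcgr1 and -0.58 (SE 0.151) for Fcgr3, with DESeq2 adjusted p = 7.64e-159, 1.2e-17 and 0.000589. The Fcgr3 call was lost with total-count scaling (-0.02) and on TPM (-0.07). That of Fcer1g, -0.35 (SE 0.10, adjusted p = 0.00195), was lost with TMM normalisation (-0.22) and in edgeR (-0.24), without replicate 3 (-0.28), and turned to 0.21 with total-count scaling and 0.14 on TPM. For Fcgr4 the interaction was -0.33, with a wide interval of -1.16 to 0.51 (adjusted p = 0.575), and it ranged from -0.96 on log2(TPM + 1), where it was called, to 0.23 with total-count scaling. For Fcgrt it was -0.06, with an interval of -0.34 to 0.22, and its sign turned with other scalings, being called at 0.49 with total-count scaling and 0.44 on TPM. Of all genes 17.7% had a higher and 23.8% a lower interaction, and 42.8% of those called were higher, against 85.7% with total-count scaling, where the median of all genes was 0.50.

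IL-10 without LPS raised 4 members by small amounts, in a comparison where few genes moved. Fcgr2b rose by 1.07 (SE 0.073), or 2.10-fold, with an adjusted p = 1.37e-44. Fcgr1 rose by 0.41 (SE 0.104, adjusted p = 0.00505), Fcgrt by 0.40 (SE 0.097, adjusted p = 0.00331) and Fcgr3 by 0.38 (SE 0.104, adjusted p = 0.0129) in DESeq2. Fcgr4 was at 0.43 with a 95% interval of 0.15 to 0.72 (adjusted p = 0.0900), and it passed with the sequencing lane as a covariate (0.45, adjusted p = 0.0272). Fcer1g was at 0.12, with an interval of -0.02 to 0.26 (adjusted p = 0.693). The normalised counts of the 2 groups overlapped for none of the 6, including Fcer1g, which had no call. The share of all genes without such overlap was not determined. Of all genes 1.8% were called higher and 1.01% lower, against 4 and 0 of the members. The higher genes were 63.5% of those called, and 85.4% in limma on TPM.

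Only the Fcgr2b call with IL-10 alone held under all 16 settings. The Fcgr1 call was lost without replicate 2 (0.36), without replicate 3 (0.29), without Unstimulated replicate 2 (0.37) and on TPM (0.48). That of Fcgr3 was lost without replicate 2 (0.39), without replicate 3 (0.41), without Unstimulated replicate 1 (0.33), in edgeR (0.38) and on TPM (0.44), and that of Fcgrt without replicate 1 (0.36) or 2 (0.44) and in 2 of the 3 fits on TPM (0.45).

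IL-10 before LPS raised all 4 receptors above LPS alone. Fcgr2b rose by 1.46 (SE 0.069), or 2.76-fold, and Fcgr3 by 1.25 (SE 0.105), or 2.38-fold. Fcgr1 rose by 0.63 (SE 0.102, adjusted p = 2.27e-08) and Fcgr4 by 0.51 (SE 0.124, adjusted p = 0.000488). Fcer1g was at -0.04, with an interval of -0.18 to 0.09 (DESeq2 adjusted p = 0.775), and its sign turned with total-count scaling (0.05), on TPM (0.06) and without replicate 2 (0.01). Fcgrt was higher by 0.28 (SE 0.104, adjusted p = 0.0442), a call lost in edgeR (adjusted p = 0.0535), with only the 2 groups in the fit (0.29, adjusted p = 0.163) and without replicate 1, 2 or 3 (0.29, 0.28 and 0.27). The Fcgr4 call was lost without replicate 2 (0.50, adjusted p = 0.0539) and on log2(TPM + 0.1) (0.62). With 5 members higher and 0 lower, the shares of all genes were 8.38% and 8.81%. Called genes were higher in 48.8% of cases, and in 71% with total-count scaling.

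The interaction of LPS with IL-10 was called for Fcgr3 at 0.87 (SE 0.148, adjusted p = 4.36e-07) and for Fcgr2b at 0.40 (SE 0.10, adjusted p = 0.00222), both raised more by IL-10 in the presence of LPS. The Fcgr2b call was lost without replicate 2 (0.31) and in 2 of the 3 fits on TPM. The others were not called in DESeq2, with 95% intervals of -0.07 to 0.50 for Fcgr1, -0.30 to 0.45 for Fcgr4, -0.36 to 0.03 for Fcer1g and -0.40 to 0.16 for Fcgrt. Interactions were called higher for 4% and lower for 3.44% of all genes, and 53.7% of those called were higher, against 73.6% with total-count scaling.

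Set against each other under LPS, JQ1 left every member lower than IL-10 did. Fcgr2b differed by -6.09 (SE 0.084), or 68.1-fold, Fcgr4 by -5.73 (SE 0.177), or 53.2-fold, Fcgr1 by -5.38 (SE 0.114), or 41.5-fold, and Fcgr3 by -2.89 (SE 0.108), or 7.39-fold. The differences of Fcgrt (-0.42, adjusted p = 0.000166) and Fcer1g (-0.40, adjusted p = 4.52e-08) were far smaller. Both of these calls were lost with total-count scaling (-0.14 and -0.12) and on TPM (-0.22 and -0.20), and that of Fcgrt also without replicate 2 (-0.33). Of all genes 23.8% were called higher and 31.6% lower, and 0 and 6 of the members, with 44% of called genes higher and 62.2% with total-count scaling.

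**Figure D2:**
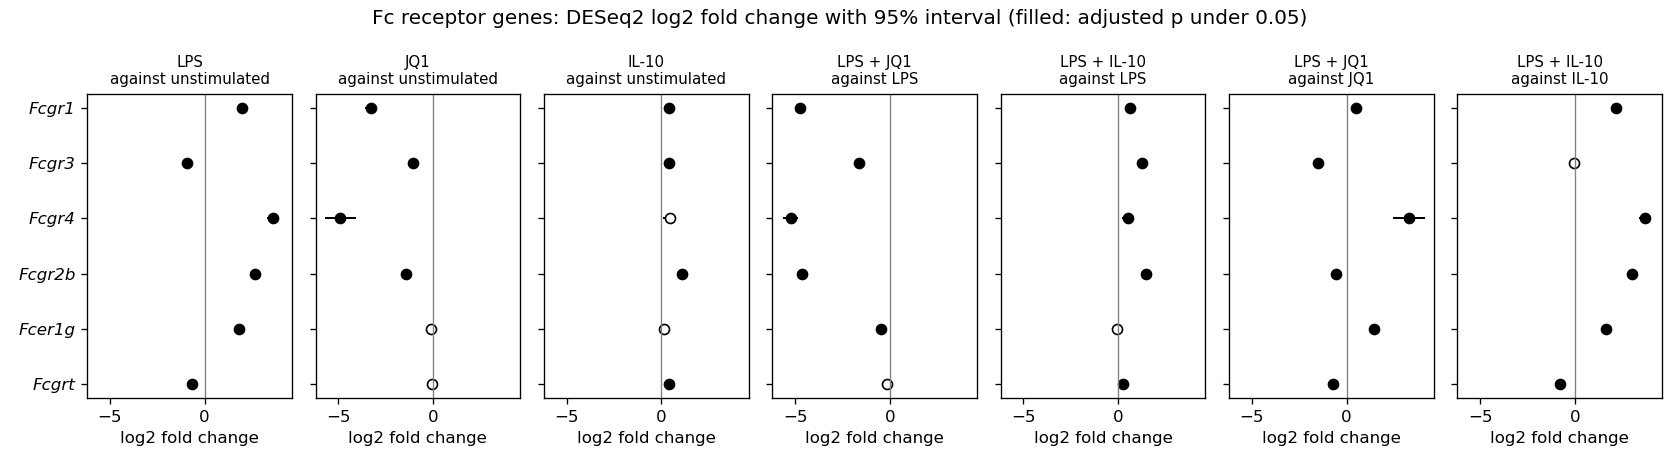
DESeq2 log2 fold change of each gene (horizontal axis) in 7 comparisons with the 95% interval, which is often narrower than the point, for groups of 3. Filled points have an adjusted p under 0.05. The 4 receptors lie left of 0 in both comparisons that add JQ1 and right of 0 in both that add IL-10, where Fcgr4 without LPS is open, and Fcer1g moves mainly where LPS is added.

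Which receptor made up most of the transcripts changed with treatment. Fcgr3 was 68.7% ± 3.58 (SD, n = 3) of the summed TPM of the 4 receptors in the Unstimulated group, 81.9% ± 0.691 in the JQ1 group and 62.4% ± 1.21 in the IL-10 group. It was only 17.1% ± 1.07 in the LPS group and 18.1% ± 1.37 in the LPS + IL-10 group, against 63.8% ± 2.02 in the LPS + JQ1 group. Fcgr2b took 15.9% ± 1.02 of the sum in the Unstimulated group, 46.4% ± 2.13 after LPS alone, 57.3% ± 1.34 after IL-10 and LPS, and 21.9% ± 3.00 after JQ1 and LPS. In receptor make-up the LPS + JQ1 libraries thus lay beside the libraries without LPS, but their sum was far lower. The summed level of the 4 receptors was 889 ± 13.6 TPM in the Unstimulated group and 1107 ± 113 TPM after LPS alone. JQ1 took it to 311 ± 19.3 TPM without LPS and 118 ± 12.9 TPM with it, and IL-10 to 1326 ± 25.1 and 2677 ± 386 TPM.

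**Figure D3:**
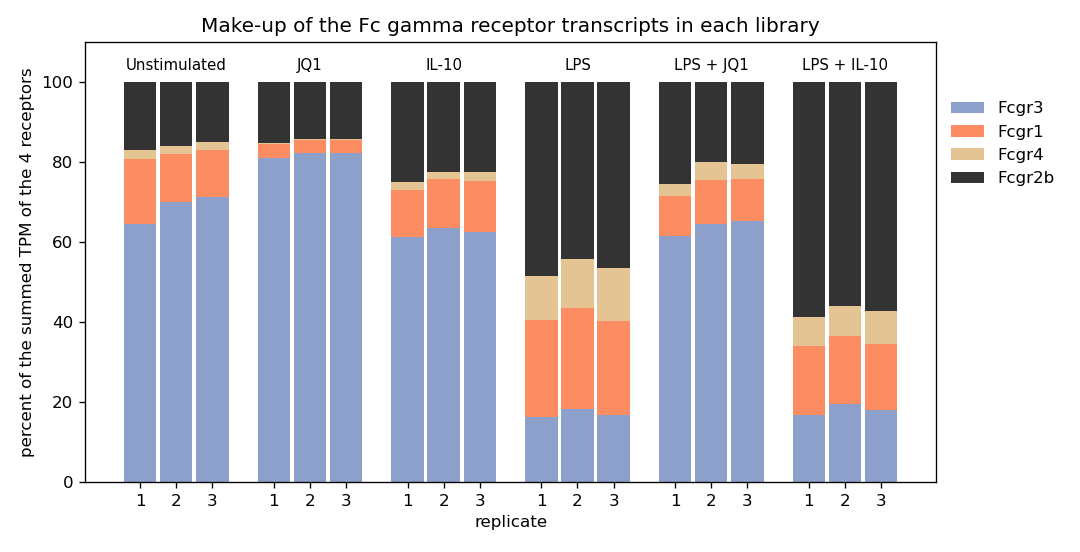
Share of each receptor (stacked bars, percent) in the summed TPM of Fcgr3, Fcgr1, Fcgr4 and Fcgr2b, with 1 bar per library. Fcgr3 fills 61.2% to 82.4% of the bar in the 12 libraries of the groups Unstimulated, JQ1, IL-10 and LPS + JQ1, and 16.3% to 19.6% in the 6 libraries of LPS and LPS + IL-10.

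The ratio of activating receptors (summed TPM of Fcgr1, Fcgr3 and Fcgr4) to Fcgr2b does not depend on the scaling between libraries. In replicates 1, 2 and 3 it was 4.88, 5.32 and 5.69 in the Unstimulated group, 5.61, 6.01 and 6.06 in the JQ1 group and 3.00, 3.47 and 3.47 in the IL-10 group. After LPS it was 1.06, 1.26 and 1.15 without pretreatment, 2.94, 4.01 and 3.89 after JQ1 and 0.705, 0.786 and 0.751 after IL-10. LPS + IL-10 was the only group in which the inhibitory receptor outnumbered the sum of the activating ones, in 3 of 3 libraries. The group means of the log2 ratio were 2.40 ± 0.110 (SD, n = 3) in the Unstimulated group, 2.56 ± 0.0615 in the JQ1 group and 1.72 ± 0.121 in the IL-10 group. After LPS they were 0.21 ± 0.124 without pretreatment, 1.84 ± 0.247 after JQ1 and -0.42 ± 0.0789 after IL-10. LPS and LPS + IL-10 overlapped with no other group, Unstimulated overlapped with JQ1, and IL-10 overlapped with LPS + JQ1. No test was made of this score over the members.

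The ratio rested on Fcgr3. Without it, the log2 ratio of Fcgr1 plus Fcgr4 to Fcgr2b was -0.06 ± 0.150 (SD, n = 3) in the Unstimulated group, -2.03 ± 0.0556 in the JQ1 group and -0.70 ± 0.147 in the IL-10 group. After LPS it was -0.34 ± 0.110 without pretreatment, -0.61 ± 0.302 after JQ1 and -1.22 ± 0.0364 after IL-10, so JQ1 alone became the lowest group. Fcgr3 is also the gene that shares reads with Fcgr2b.

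The ratio of the activating receptors to their chain was lower with JQ1 alone and with LPS alone, and lowest with both. The activating receptors came to 0.644 ± 0.0594 of the Fcer1g level (ratio of TPM, SD, n = 3) in Unstimulated cells and 0.769 ± 0.0499 with IL-10. The ratio was 0.279 ± 0.0263 with JQ1, 0.251 ± 0.0142 with LPS, 0.469 ± 0.0900 with LPS + IL-10 and 0.0434 ± 0.00660 with LPS + JQ1. LPS + JQ1 overlapped with no other group in this ratio, its highest library being at 0.0492 and the lowest of all others at 0.242.

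**Figure D4:**
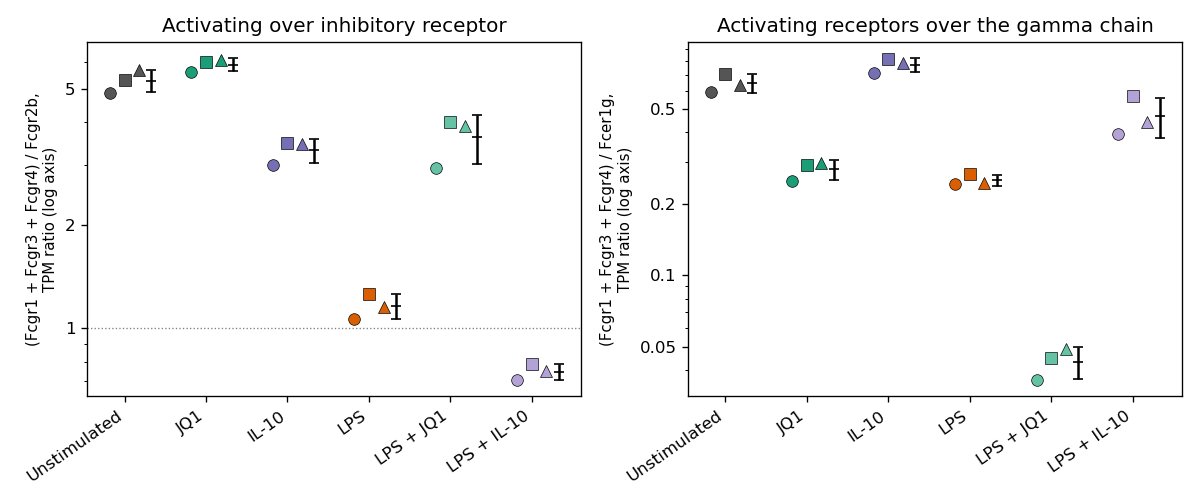
Ratio of the summed TPM of Fcgr1, Fcgr3 and Fcgr4 to Fcgr2b (left) and to Fcer1g (right) in each library, on vertical log axes, with a marker shape per replicate number as in the plot of levels, and the mean with SD of 3 beside the points. On the left only the LPS + IL-10 libraries, at 0.705 to 0.786, lie under the dotted line at 1, and on the right the LPS + JQ1 libraries, at 0.0362 to 0.0492, lie apart from the rest.

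The promoters of the 4 receptors are shown because all 4 genes were lower with JQ1, both without and with LPS, though by different amounts. They come from RefSeq (GRCm38.p6, a later build than that of the files), which held a promoter for all 6 members, and each run is the 250 bases before the start of the transcript, on the strand of the gene. The motifs were searched on both strands. Searched were the GAS of STAT proteins (TTCNNNGAA), a core of the interferon-stimulated response element or ISRE (GAAANNGAA), a core of the macrophage factor PU.1 (GAGGAA, or TTCCTC on the other strand), AP-1 (TGANTCA) and a core of NF-kB (GGGNNTTCC). Capitals mark the matches, none of which overlap.
Fcgr1 (chr3:96293970-96294219, minus strand): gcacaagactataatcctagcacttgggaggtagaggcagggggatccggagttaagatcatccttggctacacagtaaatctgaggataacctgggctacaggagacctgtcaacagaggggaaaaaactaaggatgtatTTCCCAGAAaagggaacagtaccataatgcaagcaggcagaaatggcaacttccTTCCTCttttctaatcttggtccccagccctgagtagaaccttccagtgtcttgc
Fcgr3 (chr1:171059404-171059653, minus strand): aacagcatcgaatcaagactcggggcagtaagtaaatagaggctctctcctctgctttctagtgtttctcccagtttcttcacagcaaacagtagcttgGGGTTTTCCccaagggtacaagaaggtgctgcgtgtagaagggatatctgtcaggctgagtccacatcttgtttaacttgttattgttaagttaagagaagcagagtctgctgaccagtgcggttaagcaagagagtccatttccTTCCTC
Fcgr4 (chr1:171018676-171018925, plus strand): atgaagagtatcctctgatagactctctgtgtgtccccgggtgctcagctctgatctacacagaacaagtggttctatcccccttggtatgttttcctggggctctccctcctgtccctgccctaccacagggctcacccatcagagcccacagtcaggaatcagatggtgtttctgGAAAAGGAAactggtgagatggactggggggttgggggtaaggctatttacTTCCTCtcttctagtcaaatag
Fcgr2b (chr1:170976072-170976321, minus strand): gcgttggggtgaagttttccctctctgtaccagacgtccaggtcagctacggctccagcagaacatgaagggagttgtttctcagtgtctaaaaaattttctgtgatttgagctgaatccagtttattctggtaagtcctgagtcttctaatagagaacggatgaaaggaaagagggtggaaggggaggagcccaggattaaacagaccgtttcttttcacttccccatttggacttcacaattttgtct
The promoters of the 3 activating receptors each held the PU.1 core, on the strand read as TTCCTC, 55 to 50 bases before the start of Fcgr1, 22 to 17 before that of Fcgr4 and 6 to 1 before that of Fcgr3. Among 27025 promoters of the table cut to the same length, 23.1% held it. Fcgr1 had a GAS match 109 to 101 bases before its start (7.18% of promoters), Fcgr4 an ISRE core 73 to 65 bases before (7.16%) and Fcgr3 an NF-kB core 151 to 143 bases before (4.88%). None held AP-1 (6.87%), and these letters were not in the windows of Fcgr2b, Fcer1g and Fcgrt. RefSeq also held another start of Fcgr3, not shown. From it the PU.1 core lies 15 to 10 bases before and the NF-kB core 160 to 152 bases before.

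Few of the other listed Fc receptor and antibody-binding genes were measured above a low level in these cells. Of 14 listed, 5 reached a mean of 10 normalised counts. Fcrls, an Fc receptor-like scavenger receptor, was at 335 ± 38.8 TPM (SD, n = 3) in the Unstimulated group, 56.3 ± 7.33 TPM after JQ1 and 664 ± 78.7 TPM after IL-10. The LPS groups stood at 175 ± 18.8 TPM without pretreatment, 43.1 ± 3.97 TPM after JQ1 and 332 ± 22.8 TPM after IL-10. In normalised counts Fcrls was not called with LPS (-0.15, SE 0.118, DESeq2 adjusted p = 0.26). Like Fcgr3 it was lowered by JQ1 both without LPS (-2.37, SE 0.120) and with LPS (-2.33, SE 0.121), and raised by IL-10 (0.93 and 0.81). Fcrl1, a receptor-like gene best known from B cells, fell with JQ1 (-2.31, SE 0.234) and with LPS (-1.89, SE 0.233), and was at most 14.4 ± 1.98 TPM, in IL-10-treated cells.

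Fcrlb was near the limit of detection, with 1, 0 and 0 counts in replicates 1, 2 and 3 with JQ1, 0, 0 and 3 in the LPS + JQ1 group and 86, 118 and 127 after IL-10 and LPS. B2m, the partner chain of Fcgrt, rose with LPS by 1.54 (SE 0.097) while Fcgrt fell. B2m was at 2494 ± 359 TPM in Unstimulated cells and 4225 ± 525 with LPS. Trim21, which binds antibody inside the cell, rose with LPS by 4.56 (SE 0.117) and was lower by 1.52 (SE 0.107) in LPS + JQ1 than in LPS.

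Signalling partners of the receptors were followed in 4 lists, given by their counts and medians with median-of-ratios scaling alone. In LPS + JQ1 against LPS, 9 of the 14 tested receptors that pair with the gamma chain or a like adaptor were lower and 0 higher (median -1.57), and among them the fungal receptor Clec4n fell by 4.41 (SE 0.357). Of 25 activating signalling genes 19 were lower and 6 higher (median -1.11). Rasgrp1, an activator of Ras, fell by 4.16 (SE 0.862) and Sh2b2, an adaptor, rose by 1.64 (SE 0.209). Of 21 inhibitory signalling genes 14 were lower and 2 higher (median -0.66). The ITIM receptor Clec4a2 fell by 4.43 (SE 0.208) and Pag1, a membrane adaptor for the kinase Csk, rose by 1.72 (SE 0.155). Of 26 tested genes of the phagocytic cup 21 were lower and 2 higher (median -0.52), with the motor protein gene Myo10 down by 1.48 (SE 0.076) and the dynamin Dnm2 up by 0.31 (SE 0.087). Of all genes 24.4% were called higher and 32.9% lower, with a median of -0.09, so the 6 higher of 25 activating genes are at the share of all genes.

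In LPS against unstimulated cells, the kinase Src rose by 5.78 (SE 0.200) and the adaptor Sh2b2 fell by 2.37 (SE 0.205), with 16 of 25 activating signalling genes higher and 8 lower (median 1.29). Inpp5d, which encodes the phosphatase that Fcgr2b recruits, fell by 4.32 (SE 0.120) while Fcgr2b rose. Of its list of 21 inhibitory genes 8 were higher, among them the ITIM receptor Lilrb4a (2.44, SE 0.105), and 11 lower (median -0.29). The gamma chain partner Clec4e rose by 5.91 (SE 0.451) and Cd300lb fell by 6.34 (SE 0.173), with 3 of 15 in their list higher and 4 lower (median 0.11). Of 26 phagocytic cup genes 16 were higher, led by Myo10 (3.35, SE 0.077), and 8 lower, led by Myo1f (-1.90, SE 0.091), with a median of 0.65. Of all genes 31.6% were called higher and 32.9% lower, with a median of -0.03, and several of these counts, such as 8 of 25 and 8 of 26 lower, are near those shares.

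In LPS + IL-10 against LPS, where 8.38% of all genes were called higher and 8.81% lower, the counts were 2 higher and 1 lower of 11 tested gamma chain and adaptor partners (median 0.04), 8 and 3 of 25 activating genes (0.18), 8 and 2 of 21 inhibitory genes (0.20) and 5 and 5 of 26 phagocytic cup genes (-0.05), beside a median of -0.02 for all genes. The largest changes by list were Cd300lb (2.33, SE 0.184) and the beta-glucan receptor Clec7a (-0.77, SE 0.175) among receptors, and Sh2b2 (2.15, SE 0.207) and the adaptor Blnk (-0.90, SE 0.101) among activating genes. Among inhibitory genes they were the adaptor Dok3 (1.31, SE 0.138) and the phosphatase gene Inppl1 (-0.71, SE 0.091), and in the phagocytic cup the GTPase Rac2 (0.73, SE 0.079) and Elmo2 (-0.31, SE 0.082).

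**Figure D5:**
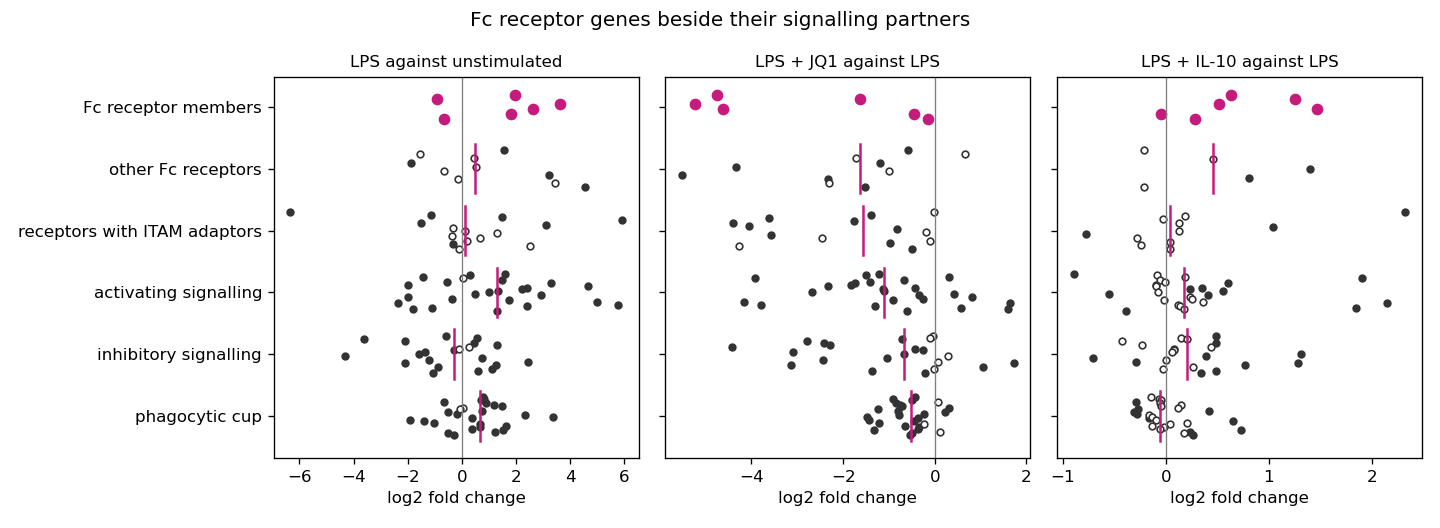
DESeq2 log2 fold changes (horizontal axes, a separate scale in each panel) of the 6 members (top line) and of the genes of 5 lists, 1 point per gene, filled black where the adjusted p was under 0.05, with a vertical bar at the median of each list. In LPS + JQ1 against LPS, Fcgr1, Fcgr4 and Fcgr2b lie at -4.74, -5.22 and -4.62, to the left of the medians of all 5 lists. Fcgr3, Fcer1g and Fcgrt lie at -1.63, -0.44 and -0.14. Among single listed genes, Fcrlb lies further left at -5.52, and Clec4a2 and Clec4n lie at -4.43 and -4.41.

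For each member the genes of most similar profile were sought, by the root mean square (RMS) difference of the 5 log2 fold changes against Unstimulated cells, over 8378 genes with a mean of at least 100 normalised counts. The 5 changes share the Unstimulated libraries, and the likeness is given as a description. Fcer1g had close neighbours, Gna13, Ptbp3 and Rela, at RMS differences of 0.09, 0.09 and 0.10. Fcgrt had Wdfy3, Txndc12 and Fuca2 at 0.14, 0.14 and 0.15, and Fcgr3 had Cacna1d, Flot1 and Tm6sf1 at 0.23, 0.29 and 0.42. The nearest to Fcgr1 were Nectin4, Tlr7 and Pilra (0.51, 0.52 and 0.58), and to Fcgr2b Klf7, Aldh1b1 and Slc7a7 (0.56, 0.72 and 0.74). Fcgr4 had the most distant neighbours, P2ry14, Slamf9 and Tmem171 (0.87, 0.95 and 0.96). No member was among the 3 nearest genes of another member.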

How the data were processed

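RNA-seq libraries were stranded and depleted of ribosomal RNA. Per the methods of the study, the authors sequenced paired ends, used STAR for alignment to mm9 and RSEM 1.2.31, with its defaults, for quantification. Expected counts, as deposited, are estimates that split a read among the genes it fits. The deposited TPM values are the authors' abundances per effective length, with the same total in every library. The weighted transcript lengths deposited beside them were used as a length offset, and the authors' FPKM were not used.

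The members and lists were chosen with earlier results of these data known. Named were the members, listed other Fc receptor genes with a mean of at least 10 normalised counts, in each signalling list the called gene with the largest rise and fall (mean of at least 50) in 3 comparisons, and the 3 nearest profiles. Expected counts were rounded and tested with the two-sided Wald test of DESeq2 1.42.0 (R 4.3.3), with group as the only term over all 18 libraries, median-of-ratios size factors, default filtering and Benjamini-Hochberg adjusted p under 0.05 over all genes. The test was checked on simulated data. Alternatives used edgeR 4.0.16, limma 3.58.1 on log2(TPM + 1) or log2(TPM + 0.1) with and without a filter of 1 TPM in 3 libraries, other scalings, a filter of 10 counts in 3 libraries, a length offset, the lane, a replicate block, only the groups compared, and left-out libraries. Lane 7 held replicate 1 and the replicate 2 libraries without LPS, and lane 8 held the remaining libraries. Leaving out a replicate removed the 6 libraries of that number.

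The submitters describe biologically matched cultures, but no label ties a replicate number to a mouse, so libraries were not treated as paired. A floor set at 3 counts per library came to 0.106 to 0.442 CPM, and such floors and Poisson intervals cover counting error only. Replicates differed beyond sampling noise, with a chi-square per degree of freedom of 3.98 to 28.3.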

Additional observations from a re-analysis of the deposited data

Results flagged for a closer look

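The effect of JQ1 differed between cells with and without LPS in DESeq2 for 4 members, by a test of the difference itself. The differences were -3.18 (SE 0.117) for the inhibitory receptor Fcgr2b, -1.46 (SE 0.163) for the high-affinity receptor Fcgr1, -0.58 (SE 0.151) for Fcgr3 and -0.35 (SE 0.10) for the gamma chain Fcer1g, with JQ1 lowering each more in the presence of LPS. The last 2 did not hold under all scalings. The effect of IL-10 differed with LPS for Fcgr3, by 0.87 (SE 0.148), and for Fcgr2b, by 0.40 (SE 0.10).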

How the results depend on the processing

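Of 1056 values of the members (66 changes under 16 settings), 963 kept direction and side of the threshold, 51 lost the call, 15 gained it and 27 changed sign. The replicate block pairs libraries by number. It changed the call of Fcgr4 with IL-10 alone (0.44, adjusted p = 0.0137 against 0.0900 in DESeq2) and no other call of a member. In proportion, it moved the genes called most for IL-10 against unstimulated, from 358 to 447. In number the move was larger elsewhere, as in LPS + IL-10 against LPS, from 1968 to 2116. Same-numbered deviations correlated at -0.113 to 0.424, over 0.1 for every pair only in LPS + IL-10 against LPS, and every library correlated best with its own number in 5 of 9 comparisons. Leaving out a replicate left groups of 2. For IL-10 against unstimulated, 358 genes were called, against 231 in edgeR, 171 and 117 in limma on log2(TPM + 1) and log2(TPM + 0.1), 205 on log2(TPM + 1) without a filter and 130 (without replicate 2) to 374 with libraries left out. Members called in it numbered 4, against 2, 1 and 1 in the limma fits and 1 to 3 with libraries left out. For LPS + IL-10 against LPS 1968 genes were called, against 1089 with only the groups compared and 874 (without replicate 2) to 2024 with libraries left out, where 3 to 5 members were called. The interaction of LPS with IL-10 gave 804 genes, against 529 on log2(TPM + 0.1) and 291 (without replicate 2) to 748 with libraries left out, and 2 members, against 1 on log2(TPM + 0.1), 1 without a filter and 1 to 2 with libraries left out. JQ1 against unstimulated gave 6248 genes and 4050 (without replicate 1) to 5842 with libraries left out, and the interaction of LPS with JQ1 gave 5279 and 3471 (without replicate 1) to 4995. Without Fcgr3 the log2 ratio of activating receptors to Fcgr2b was -0.059 (Unstimulated), -2.03 (JQ1), -0.70 (IL-10), -0.34 (LPS), -0.61 (LPS + JQ1) and -1.22 (LPS + IL-10).

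Signs turned for values that were not called, Fcer1g in the interaction of LPS with JQ1 excepted. With total-count scaling Fcgrt was at 0.236 in LPS + JQ1 against LPS and Fcer1g at 0.049 in LPS + IL-10 against LPS, and the interaction with JQ1 was 0.227 for Fcgr4, 0.206 for Fcer1g and 0.493 for Fcgrt. In limma on log2(TPM + 1), on log2(TPM + 0.1) and without a filter, Fcgrt was at 0.157, 0.161 and 0.157 in LPS + JQ1 against LPS and at 0.441, 0.449 and 0.441 in the interaction with JQ1. In each of these fits Fcer1g was at 0.055 in LPS + IL-10 against LPS and at 0.14 in the interaction with JQ1, which was 0.014 for Fcgr4 on log2(TPM + 0.1). The interaction of Fcgrt with JQ1 was 0.068 with TMM and 0.047 in edgeR. With libraries left out it ran from -0.111 to 0.029, the latter without Unstimulated replicate 1, a setting added, like leaving out Unstimulated replicate 2, after seeing the data. In the same settings Fcgrt with JQ1 alone ran from -0.164 to 0.021, Fcer1g in LPS + IL-10 against LPS from -0.084 to 0.013, Fcgr3 in LPS + IL-10 against IL-10 from -0.115 to 0.061, and the interaction of Fcgr4 from -0.796 to 0.039 with JQ1 and from -0.015 to 0.189 with IL-10. The causes were not tested. Depth limits Fcgr4 with JQ1, which rests on 3 to 7 counts per library.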
